A study of Mus musculus with 9 samples.

Results

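TGF-beta signalling in the mouse epididymis was followed through 10 genes, taken by name from the 32195 gene rows of the deposited UMI matrix. They were the ligands Tgfb1, Tgfb2, Tgfb3 and Inhba, the receptors Tgfbr1, Tgfbr2 and Tgfbr3, the inhibitors Fst and Smad7, and Ltbp1, which tethers latent TGF-beta to the matrix. Single-cell RNA-seq was made from the caput, corpus and cauda of untreated C57BL/6 mice (C57BL/6J in the study's methods) at postnatal day 42 (P42, 1 pool of 5 mice) and day 56 (P56, 2 pools of 5 mice), which gave 9 libraries. The younger age was chosen for the earliest sperm to reach the duct. Red blood cells were lysed, and sperm-like cells were among the cells recovered. The 3 segments of a pool shared their mice, and with 1 pool at P42 a difference between ages cannot be told apart from a difference between pools.

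TGF-beta ligands are secreted bound to a latency peptide, and latent TGF-beta binding proteins such as Ltbp1 tether the complex to the extracellular matrix. Freed ligand binds the type II receptor Tgfbr2, which recruits the type I receptor Tgfbr1, while the coreceptor Tgfbr3 (betaglycan) presents ligand to them. Activins, which are dimers of inhibin beta subunits such as Inhba, use their own receptors, are neutralised by follistatin (Fst), and share Smad effectors with TGF-beta, and Smad7 is an intracellular inhibitor that TGF-beta itself induces. In the epididymis the pathway is known for its part in immune tolerance to sperm and in the stroma around the duct.

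RefSeq promoters were found for 6 of the 10 members. Those of Tgfb2, Inhba, Tgfbr2 and Ltbp1 are shown, chosen among the called members for the motifs they held (GRCm38.p6, the 250 bases before the annotated start, 5′ to 3′), with both windows of Ltbp1. Capitals mark matches on either strand to 3 motifs, which did not overlap each other here. The letters searched for the box that positions transcription starts (TATA box) were TATAAA. Those of the CRE, to which the cAMP response factor CREB binds, were TGACGTCA. Those of the Smad motif were CAGAC. The letters were chosen after the sequences were seen.
Tgfb2 chr1:186705990-186706239, minus strand: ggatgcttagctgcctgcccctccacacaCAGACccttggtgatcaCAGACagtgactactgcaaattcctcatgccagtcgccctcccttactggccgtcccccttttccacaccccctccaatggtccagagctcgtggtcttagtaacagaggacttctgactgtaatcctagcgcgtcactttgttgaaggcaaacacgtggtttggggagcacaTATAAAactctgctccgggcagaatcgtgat
Inhba chr13:16011601-16011850, plus strand: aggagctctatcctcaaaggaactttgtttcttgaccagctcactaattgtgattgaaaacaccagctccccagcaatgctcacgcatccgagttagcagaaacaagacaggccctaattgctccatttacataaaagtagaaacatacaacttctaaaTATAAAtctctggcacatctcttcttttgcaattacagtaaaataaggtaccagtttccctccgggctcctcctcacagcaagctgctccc
Tgfbr2 chr9:116175364-116175613, minus strand: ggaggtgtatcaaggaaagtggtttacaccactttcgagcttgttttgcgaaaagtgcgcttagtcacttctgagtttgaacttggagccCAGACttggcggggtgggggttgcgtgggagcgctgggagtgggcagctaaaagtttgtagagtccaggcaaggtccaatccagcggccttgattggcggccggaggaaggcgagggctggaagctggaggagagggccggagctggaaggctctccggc
Ltbp1 chr17:75005279-75005528, plus strand: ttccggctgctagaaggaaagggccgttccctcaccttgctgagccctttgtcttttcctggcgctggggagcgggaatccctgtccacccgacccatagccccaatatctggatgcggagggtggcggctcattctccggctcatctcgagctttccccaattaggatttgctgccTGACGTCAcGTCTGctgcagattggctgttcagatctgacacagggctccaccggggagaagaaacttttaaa
Ltbp1 chr17:75178531-75178780, plus strand: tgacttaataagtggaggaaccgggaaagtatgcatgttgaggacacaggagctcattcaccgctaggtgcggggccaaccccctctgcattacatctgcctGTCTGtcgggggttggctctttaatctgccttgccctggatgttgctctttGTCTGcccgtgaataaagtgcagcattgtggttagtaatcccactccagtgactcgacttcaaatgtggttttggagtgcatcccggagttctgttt
The Tgfb2 window held a TATA box that began 31 bases before the start and 2 Smad motifs, and the Inhba window held a TATA box 91 bases before it. The upstream Ltbp1 window held a CRE 73 bases before the start next to a Smad motif, and the Tgfbr2 window held 1 Smad motif. Of 32851 mouse promoter windows of this length, 12.4% held the TATA box letters, 1.55% the CRE and 42.2% the Smad motif on either strand, so a Smad motif was common. AGAACA, which the androgen receptor can bind, was in none of the printed windows and in 16.1% of all windows. The Tgfb1 window and the upstream window of Tgfbr1 held none of the 3 motifs and the other Tgfbr1 window held 1 Smad motif, and these are not printed. The Tgfb3, Tgfbr3, Fst and Smad7 promoters were not analysed here.

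After quality control 41462 cells were kept, 4075 to 4895 per library, with 18917199 to 40741492 UMIs per library and a median of 3084.5 to 7644 UMIs per cell. Barcodes of 143 sequences were found in at least 2 libraries and touched 291 kept cells. Clusters made without the member genes were named from markers (principal-like, basal-like, clear/narrow-like, ciliated-like, fibroblast-like, myoid-like, endothelial-like, macrophage-like, halo/T-like and sperm-like cells), and 7 of 38 clusters, with 9088 cells, stayed unnamed. Of the markers of each name, 7 of 9 to 11 of 11 had their highest level in their own cells in all names but principal-like cells (9 of 25). The P42 cauda library stood apart. Fibroblast-like cells made up 29.97% of its cells against 1.25% to 14.2% elsewhere, and principal-like cells 1.47% against 11.8% to 66.6%. Of its cells 37.1% stayed unnamed, against 9.69% to 33.2% elsewhere. Among these, 1590 were of a cluster left unnamed for markers of principal cells and of another class. The share of principal-like cells in this library therefore depends on the naming. The summed level of 8 fibroblast markers in this library was between 10259 and 35799 CPM (counts per 1e6 UMIs) in each of the other cell types, sperm-like cells highest, against at most 7770 CPM outside fibroblast-like cells in the other libraries. Many of the results that rest on the P42 cauda are therefore given with and without it.

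Over all kept cells (whole tissue), the summed level of the 10 members was 199.6 CPM in the caput, 228 CPM in the corpus and 751 CPM in the cauda of the P42 pool. At P56 it lay between 67.2 and 92.6 CPM in the 6 libraries, below each P42 library. In whole tissue, fewer cells of a type and less RNA per cell cannot be told apart. Segments were compared with edgeR's quasi-likelihood test with the pool as a block, and ages by the difference of P56 minus P42 averaged over segments, with Benjamini-Hochberg adjustment over all genes tested. Calls required an adjusted p under 0.05 together with a difference of 1 or more on the log2 scale. Of the 10 members, 4 were called between segments in whole tissue, where 24.8% of 18467 genes were called. Smad7 and Inhba were fitted highest in the caput, Ltbp1 in the corpus and Tgfb2 in the cauda. Without the P42 cauda library 6 members were called, where 34.6% of all genes were, and Fst (corpus) and Tgfb3 (caput) were added. Between the ages 8 of 10 were called, all lower at P56, where 20.9% of all genes were called and 14.5% were called lower. Tgfb1 and Tgfbr1 were not called.

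**Figure D1:**
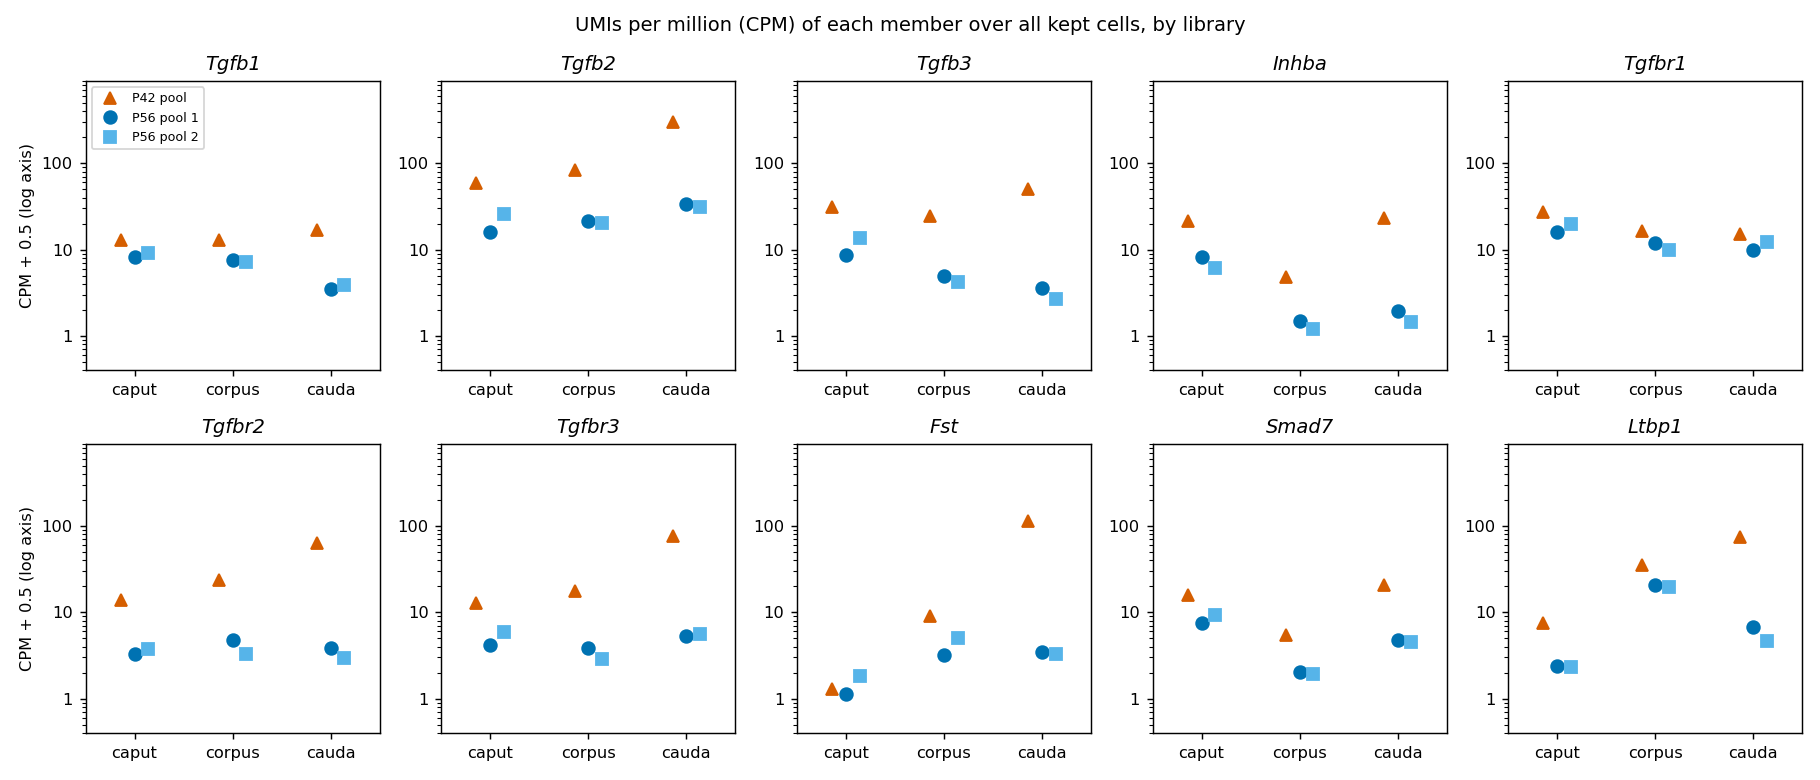
Level of each member in CPM plus 0.5 (log axis) over all kept cells, by segment (x axis) and pool (triangles P42, circles and squares the 2 P56 pools). Each point is 1 library. The P42 library lies above both P56 libraries in 29 of 30 combinations of gene and segment, and the P42 cauda is highest for Fst at 113 CPM. The same count was not made over all genes, whose median in CPM was also lower at P56.

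The P42 library held more CPM than both P56 libraries in 29 of 30 combinations of member and segment in whole tissue, 28 of 30 in principal-like, 27 of 30 in macrophage-like, 25 of 30 in fibroblast-like and 24 of 30 in myoid-like cells. The count was 23 of 30 in basal-like, clear/narrow-like and endothelial-like cells each, 15 of 20 in halo/T-like and 5 of 10 in ciliated-like cells. In sperm-like cells, used as a rough background, it was 8 of 10. These counts depend on the scaling. In CPM the median gene was itself lower at P56, by a log2 difference of -0.56 in whole tissue. In the cell types tested for age that median lay between -0.24 (principal-like) and -0.47 (clear/narrow-like cells). The same count was not made over all genes, so these counts are no result about the members. The TMM factors used in the tests moved the whole-tissue median to 0.02. Tgfbr1 shows the difference: its CPM was 1.40 to 1.54 times higher at P42 in the 3 segments, and its TMM-scaled log2 difference was 0.01 ± 0.10 (SE, edgeR adjusted p = 0.941).

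By mean CPM over the libraries with at least 20 cells of a type, fibroblast-like cells were highest for Tgfb2, Tgfb3, Tgfbr3, Fst and Ltbp1. Macrophage-like cells were highest for Tgfb1 and Tgfbr1, endothelial-like cells for Tgfbr2 and Smad7, and myoid-like cells for Inhba. In exact two-sided sign-flip permutation tests over libraries, 0 of 90 neighbouring pairs of types passed the adjustment (smallest adjusted p = 0.469). Of these pairs, 6 had an unadjusted p under 0.05. The smallest p these tests could give was 0.0039 with the most libraries, and 0.25 or more for pairs with ciliated-like cells. A single pair at 0.0039 could not pass the adjustment over 90 pairs, so these tests cannot decide the order of neighbours. The mean of Smad7 ran from 5.74 CPM in sperm-like to 17.8 CPM in endothelial-like cells, and from 1.83 to 18.8 CPM without the P42 cauda library. By number of UMIs the largest share of Tgfb1 (40.3%) and Tgfbr1 (35.2%) lay in principal-like cells, which made up 34.3% of kept cells, while fibroblast-like cells held 67.2% of the UMIs of Fst. With UMIs pooled over libraries, macrophage-like cells came before endothelial-like cells for Tgfbr2, but 508 of their 763 UMIs were of the P42 cauda, and without that library the means were 19.9 CPM in macrophage-like and 39.3 CPM in endothelial-like cells. With a gate on markers cell by cell, myoid-like cells came before fibroblast-like cells for Tgfb2 and Fst.

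**Figure D2:**
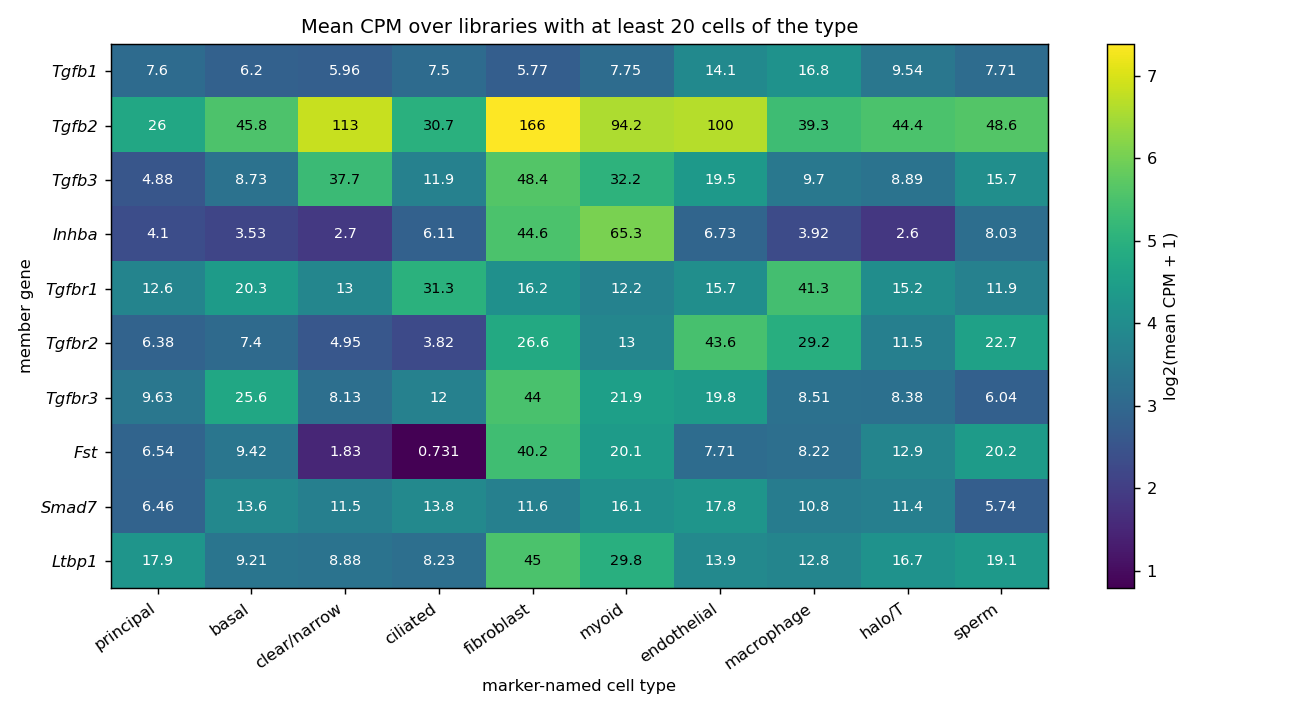
Mean level of each member (y axis) in each marker-named cell type (x axis), in CPM over the libraries with at least 20 cells of the type. Colour gives log2(mean + 1). Fibroblast-like cells held the highest mean for 5 of the 10 genes, with 166 CPM for Tgfb2.

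The share of cells with a UMI is given for 4 members against sperm-like cells, used as a rough background. They also held RNA of other types. In the P42 corpus the 25 principal markers summed to 14657 CPM in them, against 6383 CPM in basal-like and 7436 CPM in clear/narrow-like cells. Tgfb2 was found in 50.9% of fibroblast-like, 39.8% of endothelial-like, 32.8% of clear/narrow-like and 10.7% of sperm-like cells, at median depths of 5204.5, 5842.5, 5145 and 4891 UMIs. Thinned to 2000 UMIs per cell, these shares were 32.3%, 17.7%, 15.9% and 4.92%. Inhba was found in 22.9% of myoid-like, 10.4% of fibroblast-like and 1.57% of sperm-like cells (13.1%, 5.06% and 1.14% after thinning). Tgfbr2 was found in 19.8% of endothelial-like, 17.9% of macrophage-like and 4.04% of sperm-like cells (8.005%, 8.17% and 1.77%). Fst was found in 21.1% of fibroblast-like, 5.75% of macrophage-like and 1.46% of sperm-like cells (11.7%, 2.7% and 1.01%). These shares rested on the P42 cauda: in that library Fst was found in 43.6% of fibroblast-like, 16.1% of macrophage-like and 12.9% of sperm-like cells, and in the other libraries in 8.59%, 1.12% and 0.604%. For Tgfbr2 in macrophage-like cells the shares were 33.8% in the P42 cauda and 10.8% elsewhere, below the 19.5% of endothelial-like cells elsewhere, and for Tgfb2 in fibroblast-like cells 73.9% and 38.2%.

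Among the ligands, Tgfb1, the form best known from immune cells, had its highest mean over all libraries in macrophage-like cells. Without the P42 cauda library the means were 13.9 CPM there and 13.4 CPM in endothelial-like cells, and at P56 8.41 and 11.7 CPM. In macrophage-like cells Tgfb1 stood at 26.0 CPM in the P42 caput, 34.96 CPM in the corpus and 40.2 CPM in the cauda. The P56 pools gave 6.54 and 13.4 CPM in the caput, 11.8 and 8.23 CPM in the corpus, and 6.26 and 4.17 CPM in the cauda. The P42 library was above both P56 libraries in each segment, and Tgfb1 was lower at P56 by a log2 difference of -1.56 ± 0.25 (SE, edgeR adjusted p = 7.38e-05). Over the caput and corpus alone the difference was -1.15 ± 0.32 (edgeR adjusted p = 0.0335). Between segments Tgfb1 was not called in any cell type, nor in whole tissue (log2 difference of 0.46 between corpus and cauda, edgeR adjusted p = 0.461).

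Macrophage-like cells consisted of 3 clusters that the libraries filled unequally. A cluster led by Ear2, Lyz1 and H2-Ab1 held Tgfb1 at 40.0 CPM, a cluster led by Mrc1 and F13a1 held it at 27.0 CPM, and a cluster led by Ccl4 and Cx3cr1 at 13.5 CPM. The Ccl4 cluster made up 227 of 243 macrophage-like cells in the P42 caput but 96 of 911 in the P42 cauda, where 557 were of the Mrc1 cluster. At P56 the Ccl4 cluster held 127 of 180 and 284 of 341 macrophage-like cells of the cauda. Sperm-like cells of the P42 cauda held Tgfb1 at 18.9 CPM (3 UMIs). The part of this mixture in the age difference was not tested.

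Tgfb2, a ligand known from stroma and epithelium, had its highest mean in fibroblast-like cells. There it stood at 261 CPM in the P42 caput, 242 CPM in the corpus and 523.5 CPM in the cauda, and at 106 and 109, 72.6 and 59.1, and 65.2 and 57.6 CPM in the P56 pools. All 3 P42 libraries lay above all 6 P56 libraries. The log2 difference of P56 minus P42 was -1.72 ± 0.15 (SE, edgeR adjusted p = 1.76e-05), and -1.31 ± 0.19 over the caput and corpus alone (edgeR adjusted p = 0.00316). With all libraries, segments did not differ in fibroblast-like cells beyond their spread (log2 difference of 0.52 between cauda and corpus, edgeR adjusted p = 0.601). The P42 cauda was the highest library, while the caput was highest in both P56 pools.

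In clear/narrow-like cells, the acid-secreting cells of the duct, Tgfb2 differed between segments. The caput held 77.8, 38.5 and 49.8 CPM (P42, P56 pool 1 and P56 pool 2), the corpus 182, 81.2 and 77.7 CPM, and the cauda 343, 85.6 and 79.9 CPM. In every pool the caput was lowest, and the cauda was above the caput by a log2 difference of 1.68 (edgeR adjusted p = 5.41e-04), or 1.44 without the P42 cauda library (edgeR adjusted p = 6.51e-06). A cluster led by Clcn5 and Slco1a5, with 349 of its 463 cells in the P42 corpus and 113 in the P42 cauda, held 242 CPM. The caput cells were mostly of another cluster, led by Stap1 and Smbd1 (62.3 CPM), so different clusters held the class in different segments.

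Endothelial-like and myoid-like cells also carried Tgfb2. Endothelial-like cells held 157, 159 and 166 CPM in the P42 caput, corpus and cauda against 36.0 to 90.4 CPM in the 6 P56 libraries, a log2 difference of -0.72 ± 0.24 that did not reach the fold threshold (edgeR adjusted p = 0.0299). In myoid-like cells, named from smooth muscle markers, Tgfb2 fell from 122, 182 and 261 CPM at P42 to 25.2 to 67.3 CPM at P56. The log2 difference was -1.55 ± 0.22 (edgeR adjusted p = 1.41e-04). Without the cauda libraries the difference was -1.15 ± 0.30 (edgeR adjusted p = 0.0306). A cluster led by Mustn1 and Rergl, with the pericyte marker Rgs5 among its leading genes, held 28 of 71 myoid-like cells of the P42 cauda. It held 86 of 136 and 52 of 87 in the P56 cauda. The rest were of a cluster led by Cnn1 and Myh11. The part of this mixture in the age difference was not tested.

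Tgfb3 was fitted highest in the caput in each of the 4 cell types in which it was called between segments. In whole tissue it was not called, and the P42 cauda (49.6 CPM) lay above the P42 caput (30.9 CPM). Clear/narrow-like cells held 95.8, 46.4 and 49.0 CPM in the caput, 68.2, 18.8 and 13.7 CPM in the corpus, and 37.9, 5.69 and 3.62 CPM in the cauda, in the order P42, P56 pool 1 and P56 pool 2. The level fell from caput to corpus to cauda in each of the 3 pools. The caput was above the cauda by a log2 difference of 2.35 (edgeR adjusted p = 9.79e-04). In fibroblast-like cells the caput held 149.9, 44.7 and 53.0 CPM against 55.9, 15.6 and 10.1 CPM in the corpus and 88.0, 11.6 and 6.49 CPM in the cauda (caput above corpus by 1.56, edgeR adjusted p = 0.0315). The caput was highest in every pool there too, and in basal-like cells, which lie at the base of the epithelium (caput above corpus by 2.51, edgeR adjusted p = 0.00495). The basal-like cells of the caput were nearly all of 1 cluster, led by Krt5 and Qrfp (336 of 375, 183 of 191 and 320 of 326), which held 4, 1 and 0 cells of the corpus, so different clusters held this class in the 2 segments. Between ages Tgfb3 fell in fibroblast-like cells by 1.97 on the log2 scale, and by 1.60 over the caput and corpus alone (edgeR adjusted p = 3.71e-05 and 0.00290).

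Inhba, the activin subunit, was fitted highest in the caput in whole tissue and in the 4 cell types in which it was called between segments. In whole tissue the P42 cauda (22.995 CPM) nevertheless lay above the P42 caput (20.7 CPM), while the caput was highest in both P56 pools. Myoid-like cells held 166.5, 97.2 and 102.5 CPM in the caput (P42, P56 pool 1 and P56 pool 2), 72.6, 14.4 and 0 CPM in the corpus, and 121, 10.5 and 2.97 CPM in the cauda. The 0 was of 23 cells and allowed up to 26.1 CPM (3 UMIs, counting error only). In fibroblast-like cells the caput held 155.5, 89.4 and 80.9 CPM, the corpus 15.3, 7.35 and 6.997 CPM, and the cauda 40.0, 3.11 and 2.54 CPM. The caput was highest in every pool in both types, and the lowest caput library of fibroblast-like cells lay above all corpus and cauda libraries. The caput was above the corpus by a log2 difference of 3.43 in fibroblast-like cells (edgeR adjusted p = 0.00401) and 2.44 in myoid-like cells (edgeR adjusted p = 0.0360). Without the P42 cauda library, the caput was above the cauda by 4.41 and 3.38 (edgeR adjusted p = 4.31e-09 and 1.26e-06).

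In the epithelium Inhba was low. Principal-like cells of the caput held 5.51, 3.74 and 2.82 CPM, above the corpus by a log2 difference of 2.85 (edgeR adjusted p = 0.00234). The principal-like cells of the P42 cauda held 21.3 CPM (4 UMIs), more than those of the caput. In the caput, sperm-like cells held 42.4 CPM (14 UMIs in 50 cells) and 2.90 CPM (6 UMIs) in the 2 P56 libraries with at least 20 of these cells, both above the principal-like cells of the same library (3.74 and 2.82 CPM). The part of free RNA in the principal-like level was not tested. Between ages Inhba fell in myoid-like cells by 2.21 and in fibroblast-like cells by 1.55 on the log2 scale (edgeR adjusted p = 4.15e-04 and 1.46e-04). Over the caput and corpus alone neither was called (-1.61 and -0.70, edgeR adjusted p = 0.0527 and 0.125).

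**Figure D3:**
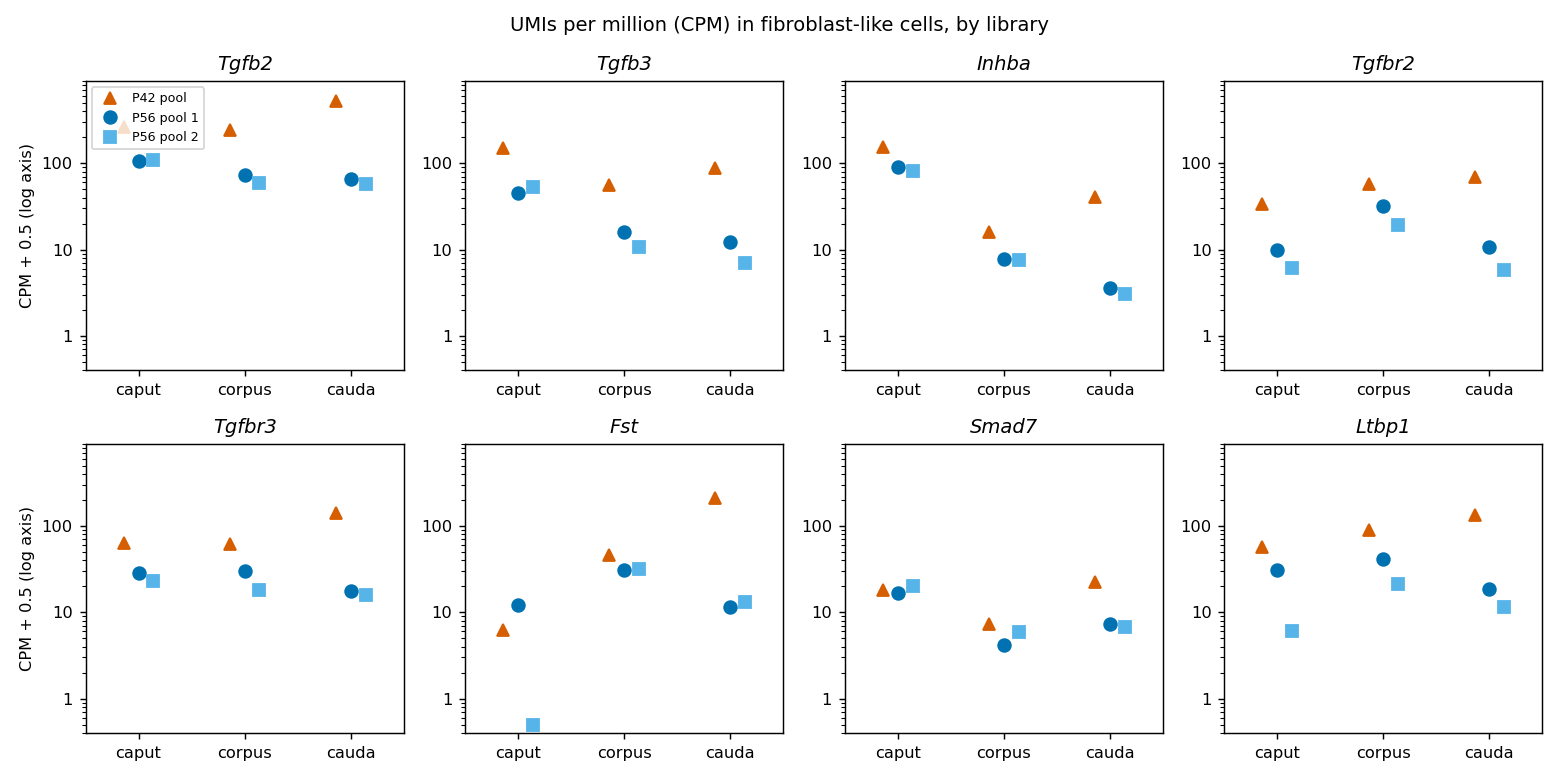
Level of 8 members in fibroblast-like cells in CPM plus 0.5 (log axis), by segment (x axis) and pool. Each point is 1 library. Inhba and Tgfb3 are highest in the caput in every pool, while Tgfb2 is at 242 CPM or more in each P42 library and at 109 CPM or less in each P56 library.

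Of the receptors, the type I receptor Tgfbr1 was not called in whole tissue. There tissue it stood at 26.9, 15.6 and 19.2 CPM in the caput, 15.7, 11.4 and 9.39 CPM in the corpus, and 14.8, 9.50 and 11.7 CPM in the cauda (P42, P56 pool 1 and P56 pool 2). Over all 9 libraries, no test of segments or of ages averaged over segments called it in any cell type. Macrophage-like cells of the P42 caput held 127 CPM, against 42.5 and 42.0 CPM in the P56 caput and 18.4 to 35.9 CPM in the corpus and cauda libraries. Without the P42 cauda library, Tgfbr1 in macrophage-like cells was higher in the caput than in the corpus by a log2 difference of 1.23 (edgeR adjusted p = 0.00357). The Ccl4 and Cx3cr1 cluster, which supplied 227 of the 243 cells there, held Tgfbr1 at 57.1 CPM over all libraries, more than any other cluster.

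Tgfbr2, the ligand-binding receptor, had the largest fall of the 10 members between the ages in whole tissue. In whole tissue it stood at 13.3, 23.3 and 62.5 CPM in the P42 caput, corpus and cauda and between 2.43 and 4.23 CPM in the 6 P56 libraries. The log2 difference of P56 minus P42 was -2.51 ± 0.15 (SE, edgeR adjusted p = 6.76e-05), and -1.93 ± 0.17 without the cauda (edgeR adjusted p = 0.00319). Lower levels at P56 were called in 6 of 6 cell types in which it was tested (principal-like, basal-like, clear/narrow-like, fibroblast-like, endothelial-like and macrophage-like cells), and in 4 of these over the caput and corpus alone (not in basal-like or clear/narrow-like cells).

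In macrophage-like cells Tgfbr2 stood at 44.9 CPM in the P42 caput, 54.8 CPM in the corpus and 104 CPM in the cauda, against 5.48 to 17.1 CPM in the 6 P56 libraries. The log2 difference was -2.30 ± 0.24 (edgeR adjusted p = 1.50e-06), and -1.96 ± 0.32 without the cauda (edgeR adjusted p = 0.00221). The Mrc1 and F13a1 cluster held 99.4 CPM. The P42 caput held 3 cells of that cluster and had 44.9 CPM, above the P56 caput libraries of 9.81 and 8.97 CPM. In the P42 cauda, sperm-like cells held 101 CPM (16 UMIs), as much as macrophage-like cells, and in the P42 corpus 14.1 CPM against 54.8 CPM.

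Fibroblast-like cells held Tgfbr2 at 33.4, 57.6 and 68.2 CPM in the P42 caput, corpus and cauda and at 5.36 to 31.3 CPM in the 6 P56 libraries (log2 difference -1.79 ± 0.27, edgeR adjusted p = 3.48e-04). Their mean was 21.4 CPM without the P42 cauda library. They held the largest share of its UMIs (31.9%), and segments were not called with all libraries (edgeR adjusted p = 0.151). Their corpus held 31.3 and 18.7 CPM in the P56 pools, against 9.41 and 5.58 CPM in the caput and 10.1 and 5.36 CPM in the cauda.

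Endothelial-like cells had the highest mean of Tgfbr2. The caput held 46.9, 7.86 and 13.1 CPM, the corpus 151, 20.4 and 50.9 CPM, and the cauda 78.0, 23.6 and 0 CPM (P42, P56 pool 1 and P56 pool 2). The 0 came from 20 cells and allowed up to 18.0 CPM. The corpus was above the caput in every pool, by a log2 difference of 1.71 (edgeR adjusted p = 0.0487, and 0.00475 without the P42 cauda library). The call was lost with DESeq2 (adjusted p = 0.110), with TMM factors set to 1 (0.0954), without the pool block (0.413) and without P56 pool 1 (0.194) or P56 pool 2 (0.0759), with the corpus above the caput by 1.62 to 1.86 on the log2 scale in each of these fits. A small endothelial-like cluster of 101 cells, led by Prox1, Lyve1 and Flt4, which are known from lymphatic vessels, held Tgfbr2 at 133 CPM. It made up 43 of the 101 endothelial-like cells of the P42 corpus and 20 of 311 of the P42 caput. Between ages Tgfbr2 fell by 1.76 on the log2 scale in endothelial-like cells (edgeR adjusted p = 0.00150), and by 1.85 without the cauda (edgeR adjusted p = 7.23e-05).

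Tgfbr3, the coreceptor, was lower at P56. In fibroblast-like cells it stood at 62.5, 61.6 and 141 CPM in the P42 caput, corpus and cauda, against 15.5 to 29.4 CPM at P56, a log2 difference of -1.56 ± 0.19 (edgeR adjusted p = 8.90e-05). Over the caput and corpus alone it was -1.07 ± 0.27 (edgeR adjusted p = 0.0340). Basal-like cells held 30.2, 28.9 and 25.6 CPM in the caput, 38.5, 11.3 and 6.89 CPM in the corpus, and 72.8, 6.81 and 8.83 CPM in the cauda. Here the caput libraries of the 2 ages lay close together, and the age difference of -1.37 ± 0.20 (edgeR adjusted p = 3.62e-04) was not called over the caput and corpus alone (-0.81 ± 0.25, edgeR adjusted p = 0.0491). Different clusters held the class at the 2 ages: a cluster led by Aldh3a1 and Edaradd held 121 of the 188 basal-like cells of the P42 corpus and 66 of the 103 of the P42 cauda, but 11 and 8 cells of the P56 corpus and 0 of the P56 cauda. Over all libraries it held Tgfbr3 at 50.2 CPM, against 9.02 CPM in the cluster that held most basal-like cells of the P56 corpus and cauda. The part of this mixture in the age difference was not tested.

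Among the inhibitors, the values of Fst rested on the P42 cauda. In whole tissue that library held 113 CPM against 2.99 and 2.80 CPM in the P56 cauda, and the corpus held 8.57, 2.69 and 4.58 CPM. In the caput it stood at 0.793, 0.635 and 1.32 CPM. The age difference of -1.49 ± 0.25 (edgeR adjusted p = 0.00256) was 0.03 ± 0.35 over the caput and corpus alone (edgeR adjusted p = 0.956). In fibroblast-like cells the P42 cauda held 213 CPM and the P56 cauda 11.1 and 12.7 CPM, and the corpus held 45.9, 30.3 and 31.1 CPM. The caput held 5.68, 11.8 and 0 CPM, where the 0 allowed up to 8.37 CPM. Without the P42 cauda library the corpus was highest (corpus above caput by 2.85, edgeR adjusted p = 2.15e-04), and the age difference went from -1.16 to 0.07 over the caput and corpus (edgeR adjusted p = 0.961).

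The fibroblast-like cells of the P42 cauda were of 2 clusters. A cluster led by Pi16 and Fgf7 held 1133 of them, with 21 cells in the P42 corpus and 2 in all other libraries, and its cells in the P42 cauda held Fst at 226 CPM, Tgfb2 at 553 CPM, Tgfbr3 at 149 CPM and Ltbp1 at 141 CPM. The cluster led by Apod and Mgp, found in all libraries, held 237 of them, with Fst at 112 CPM, Tgfb2 at 295 CPM, Tgfbr3 at 79.3 CPM and Ltbp1 at 71.0 CPM. The sperm-like cells of that library held Fst at 114 CPM, about as much as the shared cluster. With the shared cluster alone, 6 members were called lower at P56, where 834 of 9198 genes were. Fst was not called (-0.83, edgeR adjusted p = 0.116).

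Outside fibroblast-like cells, Fst in the P42 cauda was set against the fibroblast markers, which were high in every type of that library. Per 1000 CPM of the 8 summed markers, Fst stood at 2.66 CPM in fibroblast-like, 2.698 in principal-like, 2.46 in macrophage-like, 2.52 in halo/T-like and 3.18 in sperm-like cells of that library. Tgfb2 stood at 6.52, 7.02, 7.56, 6.30 and 5.47 CPM in the same order. In these 5 types sperm-like cells held the most Fst after fibroblast-like cells (114 CPM) and Tgfb2 at 196 CPM. The other types spread more widely. Fst stood at 1.99 CPM per 1000 CPM of markers in basal-like, 0.922 in clear/narrow-like, 3.32 in endothelial-like and 8.16 in myoid-like cells, and Tgfb2 at 10.1, 33.5, 11.3 and 13.65 CPM in the same order. For Tgfbr2 the ratio was 0.850 in fibroblast-like, 4.64 in macrophage-like and 5.30 in endothelial-like cells. The part of the fibroblast markers in the calls of principal-like cells, where Fst rested on 10 UMIs and Tgfb2 on 26 UMIs in the 67 cells of the P42 cauda, was not tested.

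**Figure D4:**
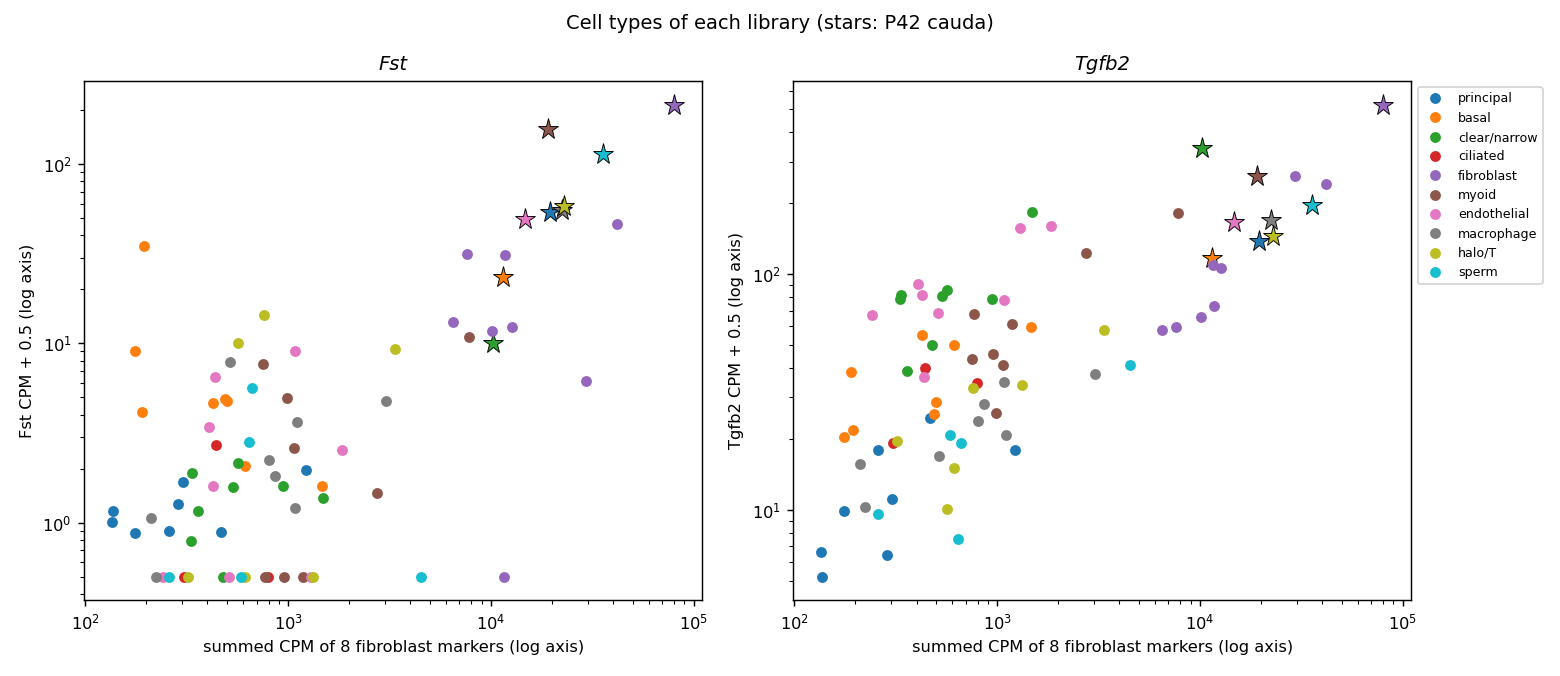
Level of Fst (left) and Tgfb2 (right) in CPM plus 0.5 against the summed level of 8 fibroblast markers, both on log axes. Each point is 1 cell type of 1 library with at least 20 cells, and stars mark the P42 cauda. The stars of principal-like, macrophage-like, halo/T-like and sperm-like cells lie at 53.1 to 114 CPM for Fst, with marker sums of 19689 to 35799 CPM.

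Basal-like cells showed Fst in the other direction. At P42 they held 1.57 CPM in the caput, 1.10 CPM in the corpus and 22.8 CPM in the cauda, and at P56 3.62 and 4.12 CPM, 8.49 and 34.4 CPM, and 4.27 and 4.41 CPM. In the caput and corpus both P56 libraries were above the P42 library, and the log2 difference of P56 minus P42 over these 2 segments was 3.07 ± 0.83 (edgeR adjusted p = 0.0273). Few UMIs stood behind it: 4 and 1 at P42, 4 and 9 in the P56 caput, and 12 and 55 in the P56 corpus, whose pool 2 held most of them. The corpus cells were of different clusters at the 2 ages, since the Aldh3a1 and Edaradd cluster (Fst at 1.86 CPM) made up 121 of 188 cells at P42, and the other cluster of the corpus (8.04 CPM) 224 of 236 and 312 of 320 cells at P56. Over all 3 segments it was 1.503 ± 0.65 and not called (edgeR adjusted p = 0.111).

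Smad7 was lowest in the corpus in whole tissue. The caput held 15.5, 7.11 and 8.78 CPM, the corpus 4.93, 1.54 and 1.45 CPM, and the cauda 19.98, 4.28 and 3.98 CPM. The caput was highest in both P56 pools and above the corpus by a log2 difference of 2.01 (edgeR adjusted p = 0.00325). In principal-like cells, which absorb and secrete along the duct, the caput held 9.34, 5.37 and 6.38 CPM against 2.67, 0.691 and 0.290 CPM in the corpus (caput above corpus by 2.82, edgeR adjusted p = 0.00342). Their cauda held 31.9 CPM at P42 (6 UMIs), above the P42 caput, and 0.709 and 0.767 CPM at P56. In clear/narrow-like cells the cauda was fitted highest, through 40.6 CPM in the P42 cauda. The P56 cauda held 8.63 and 6.29 CPM and the P56 caput 11.3 and 13.6 CPM, and without the P42 cauda library the caput was highest (above corpus by 2.29, edgeR adjusted p = 3.31e-04). Between ages Smad7 fell by 1.07 in whole tissue (edgeR adjusted p = 3.01e-04) and was not called over the caput and corpus alone (-0.84 ± 0.15, edgeR adjusted p = 0.0156).

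Ltbp1, the latent TGF-beta binding protein, was fitted highest in the corpus in the epithelium. Principal-like cells held 32.1, 20.6 and 22.1 CPM in the corpus against 1.46, 0.794 and 1.36 CPM in the caput and 69.1, 9.69 and 3.64 CPM in the cauda. The corpus was above the caput in every pool, by a log2 difference of 4.48 (edgeR adjusted p = 2.81e-05), and by 4.46 without the P42 cauda library (edgeR adjusted p = 5.93e-06). Different clusters held the principal-like cells of caput and corpus, which applies to Smad7 and Inhba as well. A cluster led by Cyp17a1 and Fga held 1435 of 2265 and 1573 of 1847 corpus cells of the P56 pools but 0 and 2 caput cells, and a cluster led by Ltf and Pate1 held 1115 of 1542 corpus cells at P42 but 6 caput cells. Basal-like cells of the corpus held 15.4, 18.4 and 13.8 CPM and clear/narrow-like cells 7.82, 15.7 and 14.3 CPM, and both were called in the same direction (edgeR adjusted p = 0.00201 and 0.0489). Their cauda held 22.8, 5.54 and 3.20 CPM and 31.1, 3.49 and 3.21 CPM, so in the P42 pool the cauda was above the corpus. Sperm-like cells of the corpus held 26.5, 17.0 and 17.5 CPM, near or above the basal-like and clear/narrow-like levels. The principal-like level was above that of sperm-like cells in each pool. In the same corpus libraries the 25 principal markers summed to 14657, 30800 and 27224 CPM in sperm-like cells and to 25988, 43648 and 35859 CPM in principal-like cells. In basal-like cells they summed to 6383, 23757 and 18403 CPM, and in clear/narrow-like cells to 7436, 17351 and 15782 CPM. Both were below sperm-like cells, which are thus no clean background for these types. The part of free RNA in the Ltbp1 levels was not tested.

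Fibroblast-like cells held more Ltbp1 than principal-like cells in the caput: 56.1, 30.6 and 5.58 CPM. Their corpus held 88.6, 41.4 and 21.0 CPM and their cauda 133, 18.4 and 11.004 CPM. The corpus was highest in both P56 pools, but segments were not called with all libraries (log2 difference of 0.99 between corpus and caput, edgeR adjusted p = 0.392). Between ages Ltbp1 fell by 1.71 on the log2 scale in fibroblast-like cells (edgeR adjusted p = 6.62e-04) and was not called over the caput and corpus alone (-1.27 ± 0.36, edgeR adjusted p = 0.0571).

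Counted over cell types, segments were called for 5 of 10 members tested in principal-like cells (34.4% of all genes tested), 2 of 9 in basal-like (13.6%), 5 of 9 in clear/narrow-like (13.6%), 2 of 9 in fibroblast-like (7.1%), 1 of 3 in myoid-like (10.3%), 1 of 5 in endothelial-like (9.04%) and 0 of 8 in macrophage-like cells (12.1%). In macrophage-like cells 5 members had an unadjusted edgeR p under 0.05, and DESeq2 called 2 (1304 of 9494 genes). Without the P42 cauda library 4 were called there by edgeR (26.2% of all genes). In fibroblast-like cells 5 of 10 were then called (20.6% of all genes), 3 highest in the caput and 2 in the corpus. Without P56 pool 1, 0 of the 10 were called by edgeR in whole tissue (614 of 19096 genes), without P56 pool 2 it was 1 (1237 of 18708 genes), and without the P42 pool 6 (7440 of 18617 genes). The calls of all genes thus numbered fewer too where a P56 pool was left out. In principal-like cells the call of Fst as highest in the cauda (adjusted p = 0.0386, edgeR) was lost without the P42 cauda library (adjusted p = 0.0862, edgeR).

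Lower levels at P56 were called for 7 of 10 members tested in principal-like cells (4.09% of all genes were called lower and 6.69% in either direction), 3 of 9 in basal-like (5.39% and 9.45%), 3 of 9 in clear/narrow-like (4.56% and 7.56%), 7 of 9 in fibroblast-like (11.4% and 19.4%), 3 of 3 in myoid-like (11.7% and 19.4%), 1 of 5 in endothelial-like (5.71% and 11.9%) and 7 of 8 in macrophage-like cells (12.9% and 21.4%). No member was called higher at P56 in these tests. In principal-like cells the additive age model called 1 member instead of 7, and 265 of 14713 genes instead of 984. The class was made of different clusters at each age. Of the P42 caput cells 713 and 412 of 1632, and of the P42 corpus cells 1115 of 1542, were of 3 clusters with 0 cells at P56, and 52 of the 67 principal-like cells of the P42 cauda were of the last of them. The Clcn5 and Slco1a5 cluster of clear/narrow-like cells also had 0 cells at P56. The part of these mixtures in the age differences was not tested. The members tested are those that passed a filter on low counts, which high P42 counts can help to pass. Over the caput and corpus alone, 5 of 10 members were called in whole tissue (10.9% of all genes), 4 of 10 in fibroblast-like cells (5.57%), 2 of 9 in principal-like cells (2.94%), 1 of 9 in clear/narrow-like (3.82%), 1 of 3 in myoid-like (7.81%), 1 of 8 in endothelial-like (6.61%) and 2 of 8 in macrophage-like cells (7.3%), all lower at P56. In basal-like cells 1 of 9 was called (3.65%), Fst, which was higher at P56. With P56 pool 1 or P56 pool 2 left out, which leaves 1 pool at each age, 0 members were called by edgeR in whole tissue, where 0 of 17472 and 0 of 17234 genes were called at all. In fibroblast-like cells 5 were called without P56 pool 1 (1034 of 10122 genes) and 0 without P56 pool 2 (0 of 9945 genes).

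Markers of several cell types differed with age as well, and in principal-like cells their own markers were higher at P56 in each segment. In fibroblast-like cells the 8 summed fibroblast markers stood at 29570 CPM in the caput and 42020 CPM in the corpus at P42, against 12747 and 11568, and 11725 and 7637 CPM in the P56 pools. The endothelial-like cells of the caput held their own markers at 3860 CPM at P42 and 1411 and 1839 CPM at P56, and the myoid-like cells of the cauda held theirs at 20184 CPM and 2355 and 1478 CPM. Fibroblast markers in other types were also higher at P42 in the caput and corpus: in macrophage-like cells they summed to 1078 CPM against 222 and 211 CPM in the caput and to 3028 CPM against 858 and 516 CPM in the corpus, and in principal-like cells of the corpus to 1224 CPM against 136 and 137 CPM. Leaving out the cauda therefore did not remove this difference, and the part of the markers in the age differences of the members was not tested.

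**Figure D5:**
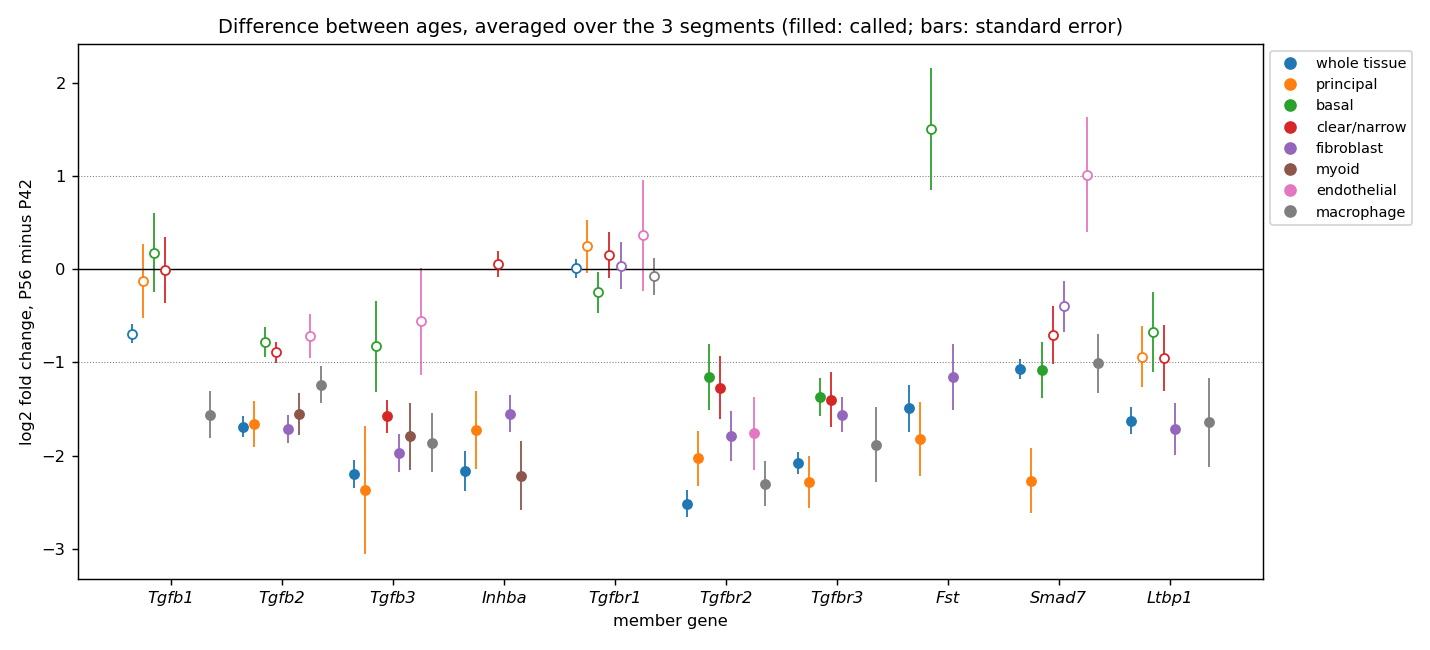
Log2 difference of P56 minus P42 (y axis), averaged over the 3 segments, for each member (x axis) in whole tissue and 7 cell types. Filled points were called, open points were not, and bars are standard errors. All filled points lie below 0, from -1.01 for Smad7 in macrophage-like cells to -2.51 for Tgfbr2 in whole tissue.

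The age difference was also tested for variation between segments, a test chosen after seeing the data. Each segment had a single P42 library, so such variation cannot be told apart from an unusual library. The P42 cauda library stood apart, as described above. In whole tissue the test of this variation called 8 of 10 members (15.2% of all genes), all but Smad7 and Tgfbr1, with the cauda furthest from 0. For Tgfb2 the log2 difference of P56 minus P42 was -1.18 (caput), -1.39 (corpus) and -2.50 (cauda), and for Fst it was 0.67, -0.59 and -4.55. In fibroblast-like cells 2 members, Fst and Inhba, were called (4.7% of all genes). In macrophage-like cells Tgfb2 and Tgfbr1 were called (10.3%), and Tgfbr1 changed direction, from -1.16 in the caput to 1.07 in the cauda. The Ccl4 and Cx3cr1 cluster, highest for Tgfbr1, made up 96 of 911 macrophage-like cells of the P42 cauda and 127 of 180 and 284 of 341 at P56. The part of this mixture was not tested.

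Of 81 further genes of the TGF-beta superfamily, 75 had a row and 66 were tested in whole tissue. Between segments 27 of the 66 were called (40.9%, against 24.8% of all genes), with the caput highest for 8, the corpus for 2 and the cauda for 17. Their median log2 difference between the highest and lowest segment was 1.27, against 0.80 over all genes. The largest were Lefty2 (a Nodal antagonist, corpus, 7.88), Inhbb (an activin subunit, caput, 6.31), Id3 (a BMP target, cauda, 4.34), Bmp8a (a ligand, caput, 3.77), Id1 (a BMP target, cauda, 3.69) and Bmper (a BMP-binding protein, cauda, 3.58). Among all 4572 genes called, the caput was highest for 2101, the corpus for 1331 and the cauda for 1140. Of 10 target genes 7 were called, all highest in the cauda, and without the P42 cauda library 9 of 10, again all highest in the cauda. Without that library 40 of 67 genes were called in all (34.6% of all genes tested), with 15, 7 and 18 highest in the caput, corpus and cauda. All genes called then split into 2991, 1906 and 1760 in the same order.

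Within cell types the BMP target Id3 was highest in the cauda and called in principal-like (log2 difference to the lowest segment 5.40), basal-like (5.35), clear/narrow-like (5.13), fibroblast-like (2.67), myoid-like (3.31) and macrophage-like cells (4.62). Without the P42 cauda library it was still highest in the cauda and called in each of these 6 types (2.97 to 5.68). In endothelial-like cells it was not called with all libraries (0.80, edgeR adjusted p = 0.168). Without the P42 cauda library it was called there (1.07, edgeR adjusted p = 0.00264). Not all targets shared this pattern. Without that library the caput was highest for 2 of 7 called targets in fibroblast-like and 1 of 4 in myoid-like cells. The corpus was highest for 1 of 3 in endothelial-like and 1 of 5 in macrophage-like cells. All others called, in these and the other tested types, were highest in the cauda. The part of free RNA in the Id3 levels was not tested. In principal-like cells 34 of 58 superfamily genes were called, with the caput highest for 17, the corpus for 6 and the cauda for 11. All genes called there split into 2345, 1536 and 1174 in the same order. The superfamily genes were led by Inhbb (caput, 9.67), Bmp8a (caput, 9.01), the BMP antagonist Chrd (corpus, 7.93), the inhibin subunit Inha (caput, 7.16) and Lefty2 (corpus, 6.74). Inhbb thus shared the caput with Inhba, and in fibroblast-like cells it was called there too (caput above cauda by 5.41). In macrophage-like cells Inhbb was also called between segments. The part of free RNA in the Inhbb calls outside principal-like cells was not tested. Calls in the other types numbered 7 of 39 in basal-like (17.9%, against 13.6% of all genes), 9 of 43 in clear/narrow-like (20.9% and 13.6%), 7 of 42 in fibroblast-like (16.7% and 7.1%), 4 of 23 in myoid-like (17.4% and 10.3%), 4 of 26 in endothelial-like (15.4% and 9.04%) and 11 of 35 in macrophage-like cells (31.4% and 12.1%). In principal-like cells the shares were 58.6% and 34.4%. Without the P42 cauda library 33 of 58 were called in principal-like (36.4% of all genes), 12 of 45 in basal-like (19.4%) and 14 of 44 in clear/narrow-like cells (19.6%). It was 16 of 44 in fibroblast-like (20.6%), 11 of 30 in myoid-like (18.2%), 8 of 29 in endothelial-like (14.2%) and 19 of 37 in macrophage-like cells (26.2%).

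Between ages 28 of the 66 were called in whole tissue (20.9% of all genes were), all lower at P56, with a median log2 difference of -0.76 against 0.02 over all genes. Among the largest differences were those of Gdf10 (a ligand, -3.31), Lrrc32 (which holds latent TGF-beta on the cell surface, -3.02), Fstl1 (a follistatin-like protein, -3.01), Fbn1 (fibrillin, the anchor of latent complexes, -2.96) and Bmper (-2.71). Over the caput and corpus alone 21 of 66 were called, all lower, where 10.9% of all genes were called. In fibroblast-like cells 23 of 42 were called, 21 lower and 2 higher, and 9 of 43 over the caput and corpus alone, where 5.57% of all genes were called. Fbn2, Bambi, Gdf10, Fstl1 and Fbn1 were among the largest differences there, from -3.01 to -1.79. In macrophage-like cells 12 of 35 were lower and 1 higher, led by Fbn1 (-3.06), the matrix target Tgfbi (-2.25) and Nrros (-2.07), which holds latent TGF-beta on myeloid cells. Lower and higher calls numbered 10 and 1 of 58 in principal-like (6.69% of all genes), 8 and 1 of 39 in basal-like (9.45%) and 9 and 0 of 43 in clear/narrow-like cells (7.56%). They numbered 10 and 1 of 23 in myoid-like (19.4%) and 8 and 2 of 26 in endothelial-like cells (11.9%). The shares of all genes were 19.4% in fibroblast-like and 21.4% in macrophage-like cells. Over the caput and corpus alone all calls were lower: 8 of 56 in principal-like (2.94% of all genes), 2 of 42 in basal-like (3.65%) and 6 of 41 in clear/narrow-like cells (3.82%). The others were 3 of 19 in myoid-like (7.81%), 6 of 29 in endothelial-like (6.61%) and 7 of 34 in macrophage-like cells (7.3%).

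The genes most like each member were found by Pearson's r of log2(CPM + 1) over 79 sums of 1 cell type in 1 library, from 10 cell types, among 14127 genes. The sums share libraries and depth, so the values are descriptions. Tgfb2 was most like Pam (r = 0.896), Itih5 (0.890) and Nfia (0.872), and Tgfbr3 was most like the basement membrane gene Hspg2 (0.857), Nfia (0.843) and the collagen chaperone Serpinh1 (0.839). Tgfb3 was most like Sh3pxd2a (0.812), Pdlim3 (0.801) and Pam (0.799). Inhba was most like Hspb2 (0.768), Svil (0.757) and Sod3 (0.749), of which Hspb2 and Svil are known from muscle. Fst was most like Scara5 (0.785), Col6a5 (0.785) and Bmper (0.766), and Ltbp1 was most like Lgals1 (0.822), Col6a5 (0.814) and Sult1e1 (0.776). Tgfbr2 was most like Itpripl2 (0.806), Fscn1 (0.795) and Timp2 (0.788). For Smad7 they were H2-T22 (0.747), Mmp14 (0.742) and 2510009E07Rik (0.739), for Tgfbr1 Cnot11 (0.699), Rrs1 (0.693) and Eml3 (0.690), and for Tgfb1 the lysosomal protease Lgmn (0.666), Zc3h7a (0.647) and Ccdc115 (0.646). Among the members themselves the pairs with the highest r were Tgfb2 with Tgfb3 (0.773), Tgfb2 with Tgfbr3 (0.739) and Fst with Ltbp1 (0.660).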

How the data were processed

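Per the labels, the samples were 9 single-cell libraries of mouse epididymis. The authors extracted barcodes with UMI-tools, mapped reads to GRCm38.p6 with STAR 2.7.3a and deposited raw UMI counts per gene and barcode without normalization. Barcodes with 300 to 4000 detected genes, at most 20000 UMIs and under 50% mitochondrial UMIs were kept (42087), and 625 globin-rich cells were removed. No doublet caller was run. Cells were clustered by leidenalg 0.10.2 (3000 variable genes centred per library, 50 principal components, resolution 1), without the members or the pathway list, and a cluster was named from at least 3 markers. UMIs were summed per library and cell type (at least 20 cells) and tested with edgeR 4.0.16 in R 4.3.3 (filterByExpr, TMM, quasi-likelihood). The age model had a mean for each segment and age, so P42 libraries were assumed to vary like P56 libraries, and its p-values are too small because segments share mice. DESeq2 1.42.0 was an alternative. Python 3.11.15 and matplotlib 3.10.9 were used for the rest. Promoters came from RefSeq.

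Segments of a pool share their mice, and deviations from segment means correlated in 9 of 9 pairs of libraries of the same pool (0.247 to 0.783). Of 18 pairs from different pools, 6 were over 0.1, all between the P56 pools. The deviations also hold the difference between ages, so this check cannot show an effect of shared mice. The tests were tried on simulated data in which 200 genes differed by 2 on the log2 scale, of which 112 were recovered between segments in whole tissue and 169 between ages, and 176 and 184 in fibroblast-like cells. Unchanged genes called numbered 17 and 4, and 11 and 2. The libraries were simulated without a pool effect, so these counts do not describe data in which segments share mice. Depth per library is given in the report, and intervals from 3 counts cover counting error only. All members were named, with up to 6 called genes of the pathway list by size per comparison (1 of them is not reported here) and the 3 genes most like each member. The members and lists were chosen with earlier results of these data known. The test of the age difference between segments, the fits without the P42 cauda library or all cauda libraries, and those of single clusters were chosen after seeing the data. Other alternatives were TMM factors set to 1, no filter on low counts, no pool block, an additive age model, all barcodes, mitochondrial genes left out, a marker gate cell by cell, at least 50 cells, and each pool left out. The age fits with a P56 pool left out used the additive age model.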

Additional observations from a re-analysis of the deposited data

Results flagged for a closer look

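The difference between P56 and P42 was tested for variation between the 3 segments (edgeR, same model, adjusted over all genes tested), and 12 results passed. In whole tissue these were Fst (adjusted p = 0.00806), Ltbp1 (0.0102), Tgfbr3 (0.0132), Tgfb1 (0.0172), Tgfb3 (0.0197), Tgfbr2 (0.0263), Tgfb2 (0.0331) and Inhba (0.0404). In each of the 8 genes P56 was furthest below P42 in the cauda, by a log2 difference of -1.62 for Tgfb1 to -4.55 for Fst. The corpus difference was near 0 for Ltbp1 (-0.19) and Tgfb1 (-0.22). Each cauda difference rests on the single P42 cauda library, in which the summed fibroblast markers reached 42744 CPM in whole tissue against 413 to 7818 CPM in the other 8 libraries, and their part in these results was not tested.

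In fibroblast-like cells the difference varied between segments for Fst (edgeR adjusted p = 0.00966) and Inhba (0.0148). For caput, corpus and cauda, the Fst differences were 0.36, -0.22 and -3.61, and those of Inhba -0.66, -0.73 and -3.25. In macrophage-like cells it varied for Tgfbr1 (edgeR adjusted p = 0.0107), which was lower at P56 in the caput and higher in the cauda, and for Tgfb2 (0.0262), with -0.93, -0.48 and -2.31 in the caput, corpus and cauda. The macrophage-like cells of the cauda were mostly of different clusters at the 2 ages, and the part of this was not tested.

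No group held 4 or more libraries, so no library was tested against its own group for standing apart.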

How the results depend on the processing

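In whole tissue, 4 members were called between segments with the pool block (4572 of 18467 genes) and 1 without the block (3341 of 18467 genes). The pool pairs the segments, since they share mice. Without the block the counts were 3 in clear/narrow-like cells (1153 of 11082 genes). They were 0 in fibroblast-like (272 of 9328 genes), myoid-like (285 of 4462) and endothelial-like cells (294 of 5920). Leaving out each pool in turn gave counts between segments of 0 to 6 in whole tissue, 3 to 6 in principal-like, 1 to 5 in basal-like, 1 to 5 in clear/narrow-like, 1 to 4 in fibroblast-like, 0 to 1 in myoid-like, 0 to 0 in endothelial-like and 0 to 2 in macrophage-like cells. The calls of all genes ranged too, from 614 to 7440, 2820 to 5662, 427 to 2808, 461 to 2489, 290 to 1942, 218 to 1140, 191 to 833 and 349 to 2465 in the same order. Between ages, leaving out a P56 pool gave 0 to 0 in whole tissue, basal-like and macrophage-like cells, 0 to 1 in principal-like, clear/narrow-like, myoid-like and endothelial-like cells and 0 to 5 in fibroblast-like cells. These fits use fewer samples, and in whole tissue and macrophage-like cells they called 0 of 17472, 17234, 9733 and 8692 genes. Without a filter on low counts the calls between segments were 8 in principal-like (6331 of 29916 genes), 4 in basal-like (2360 of 25040) and 4 in fibroblast-like cells (1783 of 25702). They were 2 in myoid-like (958 of 20411), 2 in endothelial-like (891 of 21345) and 7 in macrophage-like cells (2425 of 25464). Between ages they were 6 in myoid-like (1220 of 20411) and 2 in endothelial-like cells (735 of 21345). DESeq2 called 0 members between segments in endothelial-like (444 of 5920 genes) and 2 in macrophage-like cells (1304 of 9494), and 1 between ages in basal-like cells (562 of 9769). With TMM factors set to 1, 0 were called between segments in endothelial-like cells (510 of 5920 genes). Between ages it was 5 in basal-like (1796 of 9769 genes), 6 in clear/narrow-like (2005 of 11082) and 2 in endothelial-like cells (1084 of 5920). With the marker gate, 0 were called between segments in basal-like (879 of 6961 genes) and myoid-like cells (216 of 3808). The additive age model, which the age fits with a P56 pool left out also used, called 1 in principal-like cells with all libraries. It called 265 of 14713 genes there, against 984 in the main model. Without the P42 cauda library the calls between segments were 4 in basal-like (2071 of 10660 genes), 5 in fibroblast-like (2003 of 9720) and 4 in macrophage-like cells (2543 of 9692). Over the caput and corpus alone, the calls between ages were 5 in whole tissue, 2 in principal-like, 1 in basal-like (Fst, higher at P56), 1 in clear/narrow-like, 4 in fibroblast-like, 1 in myoid-like and 2 in macrophage-like cells, with the shares of all genes given above. The Fst difference was 0.0332 in whole tissue and 0.0671 in fibroblast-like cells, and was not called. The cause was not tested where not stated. All barcodes, mitochondrial genes left out, at least 50 cells and the Svs2-led unnamed cluster added to principal-like cells kept each count of called members within 1.5 times of the main count. The number of cells limits endothelial-like and myoid-like cells, in which 5 and 3 members could be tested.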

Other observations

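In unnamed clusters no member exceeded its highest named cluster. An unnamed cluster of 1604 cells led by Defb10 and Defb9, with 1590 of its cells in the P42 cauda library and a median of 1472.5 UMIs per cell, held Tgfb2 at 97.5 CPM and Fst at 37.2 CPM. It was left unnamed for markers of principal cells and of another class. An unnamed cluster of 183 caput cells led by Dcn and Cilp, fibroblast genes, held Tgfb2 at 69.5 CPM. An unnamed cluster of 942 cells, nearly all of the caput and led by Iapp and Atp6v1g3, held Tgfb1 at 11.8 CPM.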
